A study of Mus musculus with 14 samples.

Results

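The 56 genes described here code for the machinery of mitosis and chromosome segregation. They were chosen by name, from what their products are known to do, but with earlier results of these data known. They were followed in primary mouse bone marrow-derived macrophages (pBMDMs). All 56 were among the 55414 gene identifiers quantified, and all 56 passed the filter on low counts that left 12851 genes for testing. In the experiment, supernatants of Pfa1 mouse embryonic fibroblasts (MEFs) were transferred to pBMDMs for 24 h to ask how macrophages respond to what ferroptotic cells release. Ferroptosis is a form of regulated cell death driven by lipid peroxidation, and Pfa1 MEFs undergo it when 4-hydroxytamoxifen (4OHT) deletes GPX4, the enzyme that detoxifies lipid peroxides.

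The ctrl group received supernatant of untreated MEFs, the 4OHT group supernatant of MEFs treated with 4OHT, and the 4OHT+Fer1 group supernatant of MEFs treated with 4OHT and Ferrostatin-1 (Fer1), an inhibitor of ferroptosis. The Fer1 group received supernatant of MEFs treated with Ferrostatin-1 alone, and the medium group fresh medium without contact to MEFs. Each supernatant had 3 replicates and medium had 2. All pBMDMs were wildtype, came from C57BL/6N mice, had been differentiated with M-CSF, and were plated with it before exposure. Supernatants were filtered, and no step that removes the compounds is described, so the 4OHT and 4OHT+Fer1 groups may both have been exposed to residual 4OHT, and the Fer1 and 4OHT+Fer1 groups to residual Ferrostatin-1.

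A cell enters mitosis when cyclin-dependent kinase 1, bound to cyclin B, becomes active. Chromosomes are then condensed, captured at their kinetochores by spindle microtubules and held together until every kinetochore is attached, after which the anaphase-promoting complex triggers the destruction of securin and cyclin B and the sister chromatids separate. Many genes for this machinery are transcribed in G2 and M phase and kept silent in resting cells by the DREAM complex, and are switched on by the MuvB core with B-Myb and FOXM1. In macrophages grown from bone marrow, M-CSF is the growth factor that drives division.

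Promoters of such genes are known for a short element called the cell cycle genes homology region, which commonly reads TTTGAA. A second form of this element reads TTTAAA, which is its own reverse complement. Many of these promoters also carry CCAAT boxes. Of the 56 genes, 47 had an entry in the RefSeq promoter table of GRCm38.p6, which gives 250 bases before to 50 bases after each transcript start. Between 100 bases before and 50 after the start, TTTGAA stood on either strand in 32 of the 47 genes (68.1%), against 9.23% of all 27025 genes in the table. Either form of the element stood there in 34 of the 47 genes (72.3%), against 14.7% of all genes. CCAAT stood there in 31 of the 47 genes (66.0%), against 26.3% of all genes. In the whole window, either form was present in 38 of the 47 genes (80.9%, against 30.6%) and CCAAT in 35 of the 47 (74.5%, against 41.1%). Among the 9406 tested genes with an entry, the shares between 100 before and 50 after the start were 5.94% for TTTGAA, 9.39% for either form and 30.1% for CCAAT. In the whole window they were 22.8% for either form and 43.5% for CCAAT, so for CCAAT the contrast with tested genes is smaller. These are matches of letters and not tested binding sites. The 100 bases before the start are shown for 9 genes that carried an element there, covering entry into mitosis, anaphase, spindle, cytokinesis and chromosome structure, and for Pttg1, whose RNA followed another course than that of the others. They are written from 5′ to 3′ on the strand of the gene, with both forms of the element and the CCAAT boxes in capitals, on either strand.
Cdk1: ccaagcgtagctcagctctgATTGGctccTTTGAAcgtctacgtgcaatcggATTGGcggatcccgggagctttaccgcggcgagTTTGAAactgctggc
Ccnb1: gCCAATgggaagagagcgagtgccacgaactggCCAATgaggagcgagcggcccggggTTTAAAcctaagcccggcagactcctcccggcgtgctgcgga
Plk1: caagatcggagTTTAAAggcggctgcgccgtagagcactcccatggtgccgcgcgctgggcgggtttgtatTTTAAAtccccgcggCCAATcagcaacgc
Cdc20: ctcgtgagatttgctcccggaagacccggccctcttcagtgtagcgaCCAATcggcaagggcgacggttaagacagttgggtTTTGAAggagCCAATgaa
Ube2c: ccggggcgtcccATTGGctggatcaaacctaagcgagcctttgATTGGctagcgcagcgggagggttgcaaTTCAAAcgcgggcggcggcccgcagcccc
Kif11: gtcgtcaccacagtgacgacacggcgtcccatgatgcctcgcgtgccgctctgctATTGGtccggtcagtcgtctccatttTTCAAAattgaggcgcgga
Prc1: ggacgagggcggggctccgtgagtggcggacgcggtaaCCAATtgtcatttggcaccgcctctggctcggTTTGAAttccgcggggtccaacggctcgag
Ncapg: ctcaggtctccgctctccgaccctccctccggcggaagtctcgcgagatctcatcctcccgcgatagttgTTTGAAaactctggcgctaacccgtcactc
Top2a: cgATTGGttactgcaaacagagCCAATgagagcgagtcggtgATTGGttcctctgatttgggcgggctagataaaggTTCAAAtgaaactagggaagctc
Pttg1: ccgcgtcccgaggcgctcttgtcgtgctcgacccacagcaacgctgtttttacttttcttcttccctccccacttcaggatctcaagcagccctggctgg
In GRCm38.p6 these windows lie at chr10:69352913-69353012 (minus strand) for Cdk1, chr13:100786487-100786586 (minus) for Ccnb1, chr7:122159335-122159434 (plus) for Plk1, chr4:118437344-118437443 (minus) for Cdc20 and chr2:164769829-164769928 (plus) for Ube2c. Those of Kif11, Prc1, Ncapg, Top2a and Pttg1 lie at chr19:37376282-37376381 (plus), chr7:80294376-80294475 (plus), chr5:45669825-45669924 (plus), chr11:99024190-99024289 (minus) and chr11:43425982-43426081 (minus). The element closest to the start began 15 bases before it in Cdk1, 18 in Cdc20, 19 in Kif11, 23 in Top2a, 29 in Ube2c and Plk1, 30 in Ncapg and Prc1, and 42 in Ccnb1. Prc1 has 2 listed starts, and the one farther downstream was used. The window of Pttg1 held none of these letters, nor did the 300 bases of its entry. The RefSeq start used for Pttg1 lies downstream of the 5′ end of the gene in GENCODE M21, so the sequence before that end was not searched. The starts used for Ccnb1, Ube2c, Cdk1, Prc1, Cdc20 and Ncapg also lie downstream of the GENCODE 5′ end, by fewer bases. Part of their windows therefore lies within the GENCODE gene. Nuf2, Nusap1, Tacc3 and Ncaph also lacked all of them over 300 bases.

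Libraries were made from 3′ ends (QuantSeq), in which longer transcripts do not give more reads. Levels are given as CPM, a gene's count relative to the TMM-scaled total of its library, except that sums over marker lists use the unscaled total. Total counts lay between 7823051 and 11052352 per sample, and 3 counts corresponded to between 0.271 and 0.383 CPM, a limit for counting error only. All 10 macrophage markers examined passed the filter, with a summed level between 22700 and 47100 CPM per sample. The fibroblast list summed to at most 132 CPM, the granulocyte list to at most 54.7 and the list of myeloid and erythroid progenitors to at most 28.9, with Gata1 and Hba-a1 at 0 in every library. The dendritic cell list summed to at most 22.5 CPM, in 4OHT replicate 3. After group and replicate number had been accounted for, ctrl replicate 3, 4OHT+Fer1 replicate 1 and 4OHT replicate 3 deviated most, with residual SDs of 0.322, 0.312 and 0.273 on the log2 scale against 0.114 to 0.208 in the other libraries. 4OHT replicate 3 also had the highest share of mitochondrial counts, 10.6%. The share was high in all libraries of replicate number 3, with 8.92% in ctrl, 8.63% in 4OHT+Fer1 and 8.5% in Fer1. It lay between 4.53% and 7.77% in those of numbers 1 and 2. For 4OHT against ctrl and against 4OHT+Fer1, medians over the 56 genes are also given without 4OHT replicate 3. Fold changes of single genes rest on all libraries unless stated. In the GENCODE annotation 30 of the 56 genes overlap another gene, among them Foxm1 with Tex52, Cdc20 with Elovl1, Nusap1 with Oip5 and Ncapg with Lcorl, and reads of such pairs may have been counted for either.

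The 56 genes together took 4590, 4947 and 5687 CPM in the ctrl replicates. They took 4283, 5260 and 5308 CPM with Fer1, and 5250, 4649 and 5289 CPM with 4OHT+Fer1. With 4OHT they took 2436, 2957 and 1203 CPM, and with fresh medium 813 and 949 CPM. The highest 4OHT library thus lay below the lowest library of the other supernatant groups, and both medium libraries lay below every 4OHT library. The group means were 5074 ± 560 CPM (SD, n = 3) in ctrl, 4950 ± 578 in Fer1, 5062 ± 359 in 4OHT+Fer1, 2199 ± 901 in 4OHT and 881 ± 96 (n = 2) in medium, which is 97.6%, 99.8%, 43.3% and 17.4% of the ctrl mean in the last 4 groups. The sum is led by few genes, with Smc4 holding 15.5% of it, Top2a 10.3% and Mki67 6.03%. The libraries hold RNA of whole cultures, so fewer cells in mitosis and less of these RNAs per cell cannot be told apart.

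**Figure D1:**
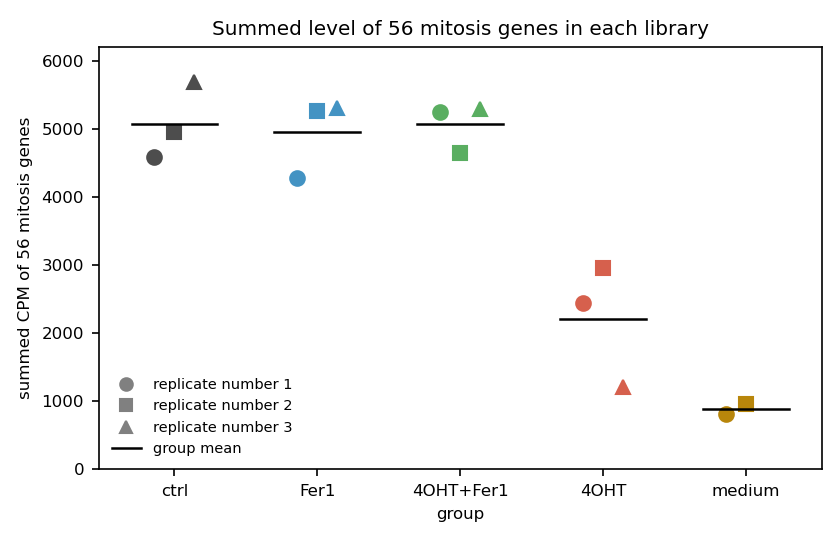
Summed CPM of the 56 mitosis genes (vertical axis, linear from 0) in each of the 14 libraries by group, with symbols for the replicate number and a line at the group mean. The 3 libraries of 4OHT lie between 1203 and 2957 CPM and the 2 of medium at 813 and 949, below all 9 libraries of ctrl, Fer1 and 4OHT+Fer1.

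The comparison of 4OHT with ctrl asks what ferroptotic supernatant does to these RNAs relative to supernatant of untreated MEFs. All 56 genes had a lower fitted level in 4OHT, with a median log2 fold change of -1.23, which is 0.426 of the ctrl level, while the median over all 12851 genes was 0.01. Of the 56 genes, 16 fell (log2 fold change beyond 1 and Benjamini-Hochberg adjusted p below 0.05 in edgeR's quasi-likelihood test) and none rose, against 0.763% of all tested genes that were called lower. An unadjusted p under 0.05 was found for 49 of the 56, against 5.93% of all genes lower at that level. In 46 of the 56 genes every 4OHT replicate lay below every ctrl replicate, against 5.84% of all genes. The exceptions were Cdk1, Cks2, Plk1, Aurkb, Bub1b, Pttg1, Cenpa, Kif23, Ckap2 and Ncapd2.

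The size of the difference varied between replicate numbers, which were taken to stand for mice. Within number 1 the median difference of log2 CPM between 4OHT and ctrl was -0.87, within number 2 it was -0.77, and within number 3 it was -2.48. In those pairs 53, 54 and 55 of the 56 genes were lower with 4OHT, and 52 were lower in all 3 pairs. The share of all genes that were lower within pairs was not computed. In the fit 49.2% of all genes were lower. The largest difference was that of number 3 in 54 of the 56 genes. Without 4OHT replicate 3 the median log2 fold change was -0.80, with 55 of 56 genes lower and 12 called, 11 of them among the 16. Without replicate number 3 in any group 10 genes were called, and without number 1 or number 2 none was called (unadjusted p under 0.05 in 47 and 48 genes), although 56 and 55 of the 56 were still lower. With the replicate number left out of the model only Ttk was called (log2 fold change -1.60), and in a model of ctrl and 4OHT alone none was, with unadjusted p under 0.05 in 47 and 45 genes. DESeq2 called 38 of the 56. Of all genes, 1.11% were called in either direction in the reported fit and 2.15% by DESeq2. This share was 1.34% without 4OHT replicate 3, 1.48% without number 3 and 0.0467% with the replicate number left out of the model. It was 0.0156% without number 1, 0% without number 2 and 0% in the model of ctrl and 4OHT alone. Without number 1 and without number 2, 941 and 710 of all 12851 genes had an unadjusted p under 0.05 in either direction.

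**Figure D2:**
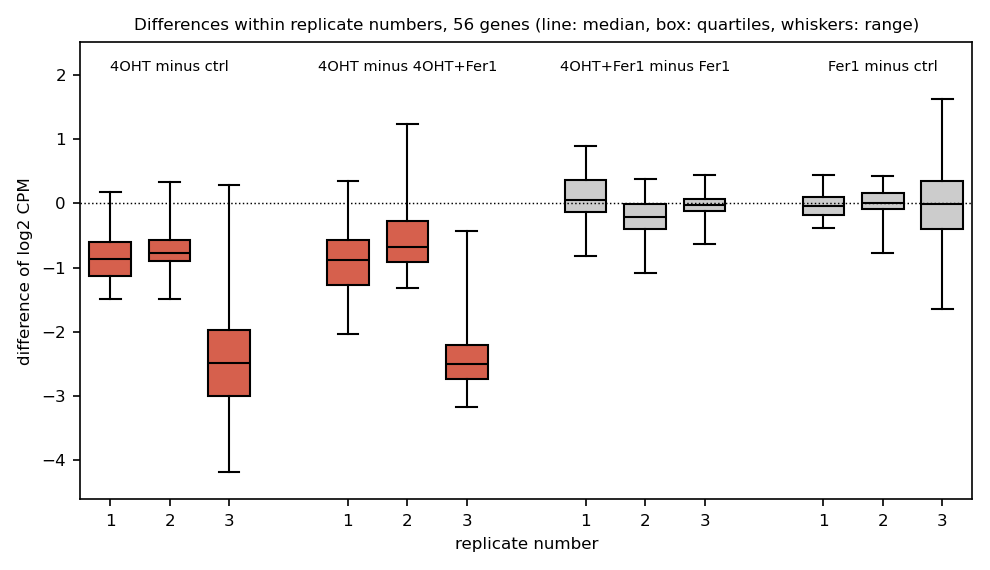
Differences of log2 CPM between groups within each replicate number for the 56 genes (line: median, box: quartiles, whiskers: lowest and highest gene). The differences of 4OHT from ctrl and from 4OHT+Fer1 have medians below 0 in all 3 numbers, near -2.5 in number 3 and between -0.88 and -0.68 in numbers 1 and 2, while those between the other groups have medians between -0.21 and 0.05.

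Among the 9 genes of mitotic entry, only Aurka passed both thresholds. Aurka, the kinase that matures centrosomes, stood at 22.6, 24.3 and 23.2 CPM in ctrl, 25.5, 30.5 and 24 in Fer1, 23.1, 25.4 and 29 in 4OHT+Fer1, 12.9, 14.9 and 7.09 in 4OHT, and 2.16 and 3.34 in medium. All 3 4OHT values lay below the other supernatants and above medium, and the log2 fold change against ctrl, given ± SE here and for the genes that follow, was -1.03 ± 0.23 (adjusted p = 0.0467). Cdk1, the kinase that drives entry into mitosis, stood at 42.9, 74 and 68.9 CPM in ctrl, 56, 72.6 and 75.6 in Fer1, 43.4, 35.6 and 55.8 in 4OHT+Fer1, 40.8, 49.7 and 13.5 in 4OHT, and 12.5 and 12.5 in medium. Here 4OHT replicate 2 lay within the ctrl range and replicate 3 was close to medium, with a log2 fold change of -0.83 ± 0.37 (adjusted p = 0.439). Ccnb1, cyclin B1, stood at 39.6, 54.9 and 36.6 CPM in ctrl, 45, 53.6 and 45.7 in Fer1, 36.9, 42.1 and 39.8 in 4OHT+Fer1, 29, 32.5 and 4.43 in 4OHT, and 1.40 and 3.67 in medium, and Ccnb2, cyclin B2, at 48.9, 58.6 and 49.6 CPM in ctrl, 48, 56.4 and 50.9 in Fer1, 39, 43.1 and 41.5 in 4OHT+Fer1, 29, 39.4 and 5.82 in 4OHT, and 2.67 and 3.00 in medium. For both, 4OHT replicate 3 was close to the medium libraries and replicates 1 and 2 were nearer to ctrl, with log2 fold changes of -1.09 ± 0.43 and -1.19 ± 0.39 that did not pass. Foxm1, the transcription factor of this gene set, stood at 29.9, 38.1 and 31 CPM in ctrl and at 18.4, 13.4 and 4.68 in 4OHT, with a log2 fold change of -1.47 ± 0.33 (adjusted p = 0.0532). Cdca3, which helps to degrade the mitotic inhibitor WEE1, had a log2 fold change of -1.25 ± 0.34 (adjusted p = 0.111). Ccna2 (cyclin A2), Plk1 (a kinase of centrosomes and kinetochores) and Cks2 (a subunit of cyclin-dependent kinases) had values of -1.46 ± 0.41, -1.01 ± 0.43 and -0.84 ± 0.39.

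The chromosomal passenger complex corrects faulty attachments of chromosomes to the spindle. Incenp, its scaffold, stood at 174, 178 and 154 CPM in ctrl, 159, 172 and 196 in Fer1, 164, 182 and 185 in 4OHT+Fer1, 79.7, 102 and 77.6 in 4OHT, and 52.2 and 58.2 in medium. The 3 4OHT replicates lay below all other supernatant libraries and above medium, and with a log2 fold change of -0.97 ± 0.14 (adjusted p = 0.00923) Incenp missed only the threshold on the size of the change. Birc5, survivin, stood at 109, 142 and 93.5 CPM in ctrl, 105, 117 and 150 in Fer1, 81.7, 141 and 142 in 4OHT+Fer1, 55.7, 75.6 and 21 in 4OHT, and 9.78 and 7.45 in medium, with a log2 fold change of -1.20 ± 0.36 (adjusted p = 0.154). Cdca8, borealin, had a log2 fold change of -1.03 ± 0.27 (adjusted p = 0.0932). Aurkb, the kinase of the complex, stood at 12.9, 14.5 and 31.1 CPM in ctrl, 13.6, 16.4 and 9.80 in Fer1, 14.6, 7.65 and 9.62 in 4OHT+Fer1, 13, 18.3 and 1.52 in 4OHT, and 3.30 and 3.34 in medium. Its ctrl replicate 3 was the highest and its 4OHT replicate 3 the lowest of all libraries, while within numbers 1 and 2 4OHT was not lower than ctrl. The log2 fold change was -0.97 ± 0.62 (adjusted p = 0.672), and it was 0.18 without replicate number 3.

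All 3 genes of the spindle assembly checkpoint, which delays anaphase until every kinetochore is attached, were lower in 4OHT, and Ttk fell. Ttk, the kinase MPS1 that starts the checkpoint, stood at 37.6, 38.3 and 35.4 CPM in ctrl, 28.7, 38.5 and 40.6 in Fer1, 36.3, 40.3 and 41.4 in 4OHT+Fer1, 13.8, 16 and 6.83 in 4OHT, and 1.52 and 2.23 in medium. The 4OHT values lay below all other supernatants and above medium, and the log2 fold change was -1.62 ± 0.25 (adjusted p = 0.0112). Bub1, a checkpoint kinase at kinetochores, stood at 23, 30.3 and 37.5 CPM in ctrl, 23.3, 31.3 and 20.8 in Fer1, 30.0, 17 and 18 in 4OHT+Fer1, 13.6, 16.1 and 2.53 in 4OHT, and 0.889 and 1.22 in medium, with a log2 fold change of -1.62 ± 0.45 (adjusted p = 0.128). Bub1b, the checkpoint protein BUBR1, had 6.85, 16.1 and 3.29 CPM in 4OHT against 13.6, 21.7 and 17.9 in ctrl, so that replicate 2 of 4OHT lay within the ctrl range.

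Of the 5 genes of anaphase onset and cohesion, Sgo1 fell. Sgo1, shugoshin, which protects cohesin at centromeres, stood at 22.6, 24.9 and 30.8 CPM in ctrl, 24.7, 29.3 and 26.7 in Fer1, 29.4, 25.4 and 27.6 in 4OHT+Fer1, 12.3, 12.2 and 4.81 in 4OHT, and 2.29 and 2.45 in medium, and its change was -1.43 ± 0.28 (adjusted p = 0.0295) on the log2 scale. Its 4OHT replicates lay below all other supernatant libraries. Sgo2a, its relative, had a log2 fold change of -1.50 ± 0.37 (adjusted p = 0.0758). Cdc20, the activator of the anaphase-promoting complex, stood at 47.1, 55.2 and 42 CPM in ctrl, 48.4, 50.7 and 54.5 in Fer1, 45.6, 60.9 and 58.1 in 4OHT+Fer1, 39.5, 31.7 and 8.23 in 4OHT, and 1.02 and 5.56 in medium, and Ube2c, the complex's ubiquitin-conjugating enzyme, at 130, 139 and 158 CPM in ctrl, 125, 146 and 155 in Fer1, 141, 96.1 and 138 in 4OHT+Fer1, 91.9, 80.9 and 17.2 in 4OHT, and 7.24 and 11.2 in medium. In both genes the 4OHT replicates lay below all ctrl replicates and replicate 3 lay far below the other 2, with log2 fold changes of -0.90 ± 0.44 (adjusted p = 0.503) and -1.23 ± 0.44 (adjusted p = 0.275). Pttg1, securin, which holds separase inactive until anaphase, stood at 77.3, 74.2 and 41.3 CPM in ctrl, 75.1, 64.5 and 63 in Fer1, 59.6, 84 and 68.3 in 4OHT+Fer1, 71.9, 53.2 and 50.5 in 4OHT, and 112 and 71.9 in medium. The supernatant groups overlapped, and its log2 fold change of -0.12 ± 0.22 (adjusted p = 0.911) was the smallest of the 56.

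Genes of centromere and kinetochore were among those with the clearest difference, with 4 of 8 called. Spc25, a subunit of the NDC80 complex that binds microtubules, stood at 44.6, 58.9 and 37.2 CPM in ctrl, 38.8, 58.7 and 51.7 in Fer1, 35.6, 57.4 and 60.1 in 4OHT+Fer1, 16.3, 24.1 and 13.3 in 4OHT, and 3.43 and 4.56 in medium. The 4OHT values lay below those of every other supernatant library, and the log2 fold change was -1.40 ± 0.21 (adjusted p = 0.00938), with the smallest adjusted p among the 16 called genes. Its partner Spc24 had 26.4, 29.6 and 33 CPM in ctrl and 14.7, 15 and 11.8 in 4OHT, with a log2 fold change of -1.09 ± 0.18 (adjusted p = 0.0155). Knl1, the scaffold that recruits checkpoint proteins, also fell, with a log2 fold change of -1.54 ± 0.34 (adjusted p = 0.0478). Cenpe, a kinesin-like motor of the kinetochore, stood at 232, 207 and 276 CPM in ctrl, 203, 239 and 224 in Fer1, 290, 200 and 227 in 4OHT+Fer1, 90.6, 127 and 41.9 in 4OHT, and 25.1 and 31.3 in medium and had a log2 fold change of -1.52 ± 0.31 (adjusted p = 0.0319). Ndc80 itself, at -1.47 ± 0.33 (adjusted p = 0.0527), Cenpf, a large protein of the outer kinetochore, at -1.46 ± 0.33 (adjusted p = 0.0511), and Nuf2, the fourth subunit of the NDC80 complex, at -1.17 ± 0.27 (adjusted p = 0.0568), lay just outside the threshold on the adjusted p. Cenpa, the histone H3 variant that marks centromeres, stood at 41.6, 62.6 and 60.2 CPM in ctrl, 49.2, 58.6 and 60.4 in Fer1, 37.1, 37.4 and 54.4 in 4OHT+Fer1, 47.2, 66 and 17.3 in 4OHT, and 8.51 and 8.57 in medium. It was not lower in 4OHT than in ctrl within numbers 1 and 2, and its log2 fold change was -0.35 ± 0.35 (adjusted p = 0.824), or 0.11 without replicate number 3.

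Of the 8 kinesins, motor proteins that walk along or disassemble microtubules, 4 fell. Kif11, the motor Eg5 that pushes spindle poles apart, stood at 41.3, 42.7 and 57.8 CPM in ctrl, 34.9, 46 and 43.6 in Fer1, 39.8, 39.8 and 41.2 in 4OHT+Fer1, 15.4, 23.5 and 5.95 in 4OHT, and 2.54 and 4.12 in medium. Its log2 fold change of -1.71 ± 0.34 (adjusted p = 0.0310) was the largest of the 56, and no 4OHT value overlapped with another supernatant. Kif20b, a kinesin of cytokinesis, stood at 126, 121 and 186 CPM in ctrl, 112, 155 and 138 in Fer1, 194, 135 and 141 in 4OHT+Fer1, 47.4, 64.5 and 30.1 in 4OHT, and 10.4 and 14.5 in medium, with a log2 fold change of -1.63 ± 0.28 (adjusted p = 0.0168). Kif15, which supports the bipolar spindle, had -1.50 ± 0.25 (adjusted p = 0.0155), and Kif4, a chromokinesin, had -1.17 ± 0.26 (adjusted p = 0.0471). The chromokinesin Kif22, the central spindle motor Kif23, the cytokinesis motor Kif20a and the microtubule depolymerase Kif2c did not pass, with log2 fold changes of -1.14 ± 0.29, -0.73 ± 0.33, -1.14 ± 0.45 and -0.99 ± 0.47. Kif23 stood at 78.4, 84.8 and 115 CPM in ctrl and at 63.2, 79.2 and 25.6 in 4OHT, so that replicate 2 of 4OHT lay just within the ctrl range.

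Of the 8 proteins associated with the spindle, Tacc3, which stabilises kinetochore fibres, fell, with 55.5, 51.4 and 47.4 CPM in ctrl, 24.8, 36.8 and 15.1 in 4OHT and a log2 fold change of -1.06 ± 0.21 (adjusted p = 0.0326). Nusap1, which bundles microtubules, stood at 92.2, 105 and 99.3 CPM in ctrl, 90.3, 117 and 147 in Fer1, 83.7, 117 and 141 in 4OHT+Fer1, 47.9, 61 and 15.4 in 4OHT, and 3.18 and 8.46 in medium. Hmmr, a microtubule-associated protein at spindle poles, stood at 88, 86.5 and 143 CPM in ctrl, 78.4, 102 and 91.6 in Fer1, 118, 72.5 and 76.4 in 4OHT+Fer1, 40.8, 54.3 and 11.9 in 4OHT, and 3.18 and 7.57 in medium, and Aspm, a spindle pole protein, at 87, 91.8 and 125 CPM in ctrl, 81.2, 93.6 and 131 in Fer1, 96, 90.3 and 121 in 4OHT+Fer1, 44.6, 58.8 and 13.2 in 4OHT, and 4.06 and 4.56 in medium. In these 3 genes the 4OHT replicates lay below all other supernatants, but replicate 3 lay several times lower than replicates 1 and 2, and log2 fold changes of -1.27 ± 0.39 (adjusted p = 0.178), -1.66 ± 0.45 (adjusted p = 0.115) and -1.37 ± 0.40 (adjusted p = 0.151) did not pass. The remaining Tpx2, Dlgap5, Ckap2 and Ckap2l had log2 fold changes between -1.53 and -1.12. None of the 4 cytokinesis genes passed. Prc1, which crosslinks the central spindle, stood at 73.1, 88.9 and 91.1 CPM in ctrl, 70.0, 86.5 and 121 in Fer1, 81.4, 82.2 and 115 in 4OHT+Fer1, 42.6, 54.5 and 16.7 in 4OHT, and 5.33 and 8.46 in medium, and its log2 fold change was -1.14 ± 0.34 (adjusted p = 0.166). Ect2 and Racgap1, which switch on RhoA at the division plane, and Anln, a scaffold of the contractile ring, had values between -1.34 and -1.10.

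The 7 genes of chromosome structure held the most abundant RNAs, and 4 of them fell. Top2a, the topoisomerase that untangles sister chromatids, stood at 504, 585 and 453 CPM in ctrl, 467, 534 and 639 in Fer1, 429, 593 and 687 in 4OHT+Fer1, 191, 279 and 90.7 in 4OHT, and 24.5 and 44.4 in medium, and Mki67, the Ki-67 protein that coats mitotic chromosomes and serves as a proliferation marker, at 271, 292 and 348 CPM in ctrl, 230, 327 and 382 in Fer1, 296, 322 and 393 in 4OHT+Fer1, 96.8, 171 and 71.4 in 4OHT, and 10.7 and 23.1 in medium. Their log2 fold changes were -1.50 ± 0.31 (adjusted p = 0.0363) and -1.46 ± 0.27 (adjusted p = 0.0258), and no 4OHT replicate reached another supernatant's range. Smc2, a core subunit of condensin, stood at 269, 265 and 332 CPM in ctrl, 222, 313 and 240 in Fer1, 366, 244 and 238 in 4OHT+Fer1, 109, 135 and 96.7 in 4OHT, and 48.4 and 68.9 in medium, with a log2 fold change of -1.36 ± 0.22 (adjusted p = 0.0134). Ncapg, a subunit of condensin I, fell too, at -1.68 ± 0.29 (adjusted p = 0.0165). Smc4, the partner of Smc2, stood at 668, 559 and 1095 CPM in ctrl, 585, 747 and 601 in Fer1, 1080, 539 and 632 in 4OHT+Fer1, 433, 421 and 276 in 4OHT, and 308 and 342 in medium. Its values in ctrl replicate 3 and 4OHT+Fer1 replicate 1, both libraries that deviated from their groups, were well above all others, and its log2 fold change was -1.04 ± 0.30 (adjusted p = 0.146). Ncaph and Ncapd2, further condensin I subunits, had values of -1.35 ± 0.44 and -0.71 ± 0.40.

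Ferrostatin-1 given to the MEFs together with 4OHT asks whether the difference depends on ferroptosis. For this the 4OHT group was compared with 4OHT+Fer1, whose MEFs had also been treated with 4OHT. All 56 genes were lower in 4OHT, with a median log2 fold change of -1.20, and 18 fell (edgeR's quasi-likelihood test), against 0.731% of all genes called lower. In 41 of the 56 genes the groups did not overlap, against 5.8% of all genes. The largest difference was that of Kif20b, -1.75 ± 0.28 (adjusted p = 0.0135), followed by Ttk at -1.70 ± 0.25 (adjusted p = 0.0114) and Ncapg at -1.68 ± 0.29 (adjusted p = 0.0205). Top2a, Mki67, Spc25, Knl1, Cenpe, Kif4, Sgo1, Kif15, Smc2, Aurka and Tacc3 were also called, with log2 fold changes between -1.65 and -1.13. Ndc80 at -1.51 ± 0.33 (adjusted p = 0.0476), Kif22 at -1.41 ± 0.29 (adjusted p = 0.0376), Cdca8 at -1.22 ± 0.27 (adjusted p = 0.0475) and Incenp at -1.04 ± 0.14 (adjusted p = 0.00753) passed here and not against ctrl, while Kif11 at -1.47 ± 0.34 (adjusted p = 0.0595) on the adjusted p, and Spc24 at -0.89 ± 0.18 (adjusted p = 0.0376), on the size of the change, did not pass here. Both comparisons share the 4OHT libraries. Within numbers 1, 2 and 3 the median differences were -0.88, -0.68 and -2.51, with 54, 45 and 56 genes lower, and 44 genes were lower in all 3. Over all genes, 49.4% were lower in the fit, and shares within numbers were not computed. Without the replicate number in the model 5 genes were called, in a model of the 2 groups alone 6, without replicate number 1 or 2 none (unadjusted p under 0.05 in 38 and 47 genes), 13 without number 3, and 32 by DESeq2. Without 4OHT replicate 3 the median log2 fold change was -0.82, with 52 of the 56 genes lower and 16 called. Of all genes, 1.03% were called in either direction in the reported fit and 1.92% by DESeq2. This share was 1.72% without number 3, 2.2% without 4OHT replicate 3, and 0% without number 1 or number 2.

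4OHT+Fer1 did not differ from ctrl in any of the 56 genes at the thresholds, nor did Fer1. For 4OHT+Fer1 the median log2 fold change was -0.02 with values between -0.94 for Aurkb and 0.48 for Ncapd2, and 0.0311% of all genes were called lower. For Fer1 the median was 0.00 with values between -0.64 for Aurkb and 0.55 for Ncapd2, and 0% of all genes were called. In both comparisons 0 of the 56 genes had an unadjusted p under 0.05 in edgeR's quasi-likelihood test, and DESeq2 called 0. Of all 12851 genes, 554 had such a p for 4OHT+Fer1 and only 146 for Fer1, so the 0 for Fer1 does not set the 56 genes apart. DESeq2 called 0.109% and 0.0233% of all genes in either direction. Typical precision is given by Mki67, with 0.15 ± 0.27 (SE) for 4OHT+Fer1 and 0.02 ± 0.27 for Fer1, and by Kif11, with -0.24 ± 0.32 and -0.21 ± 0.32. These errors are not limits of detection, since a call also needed a log2 change beyond 1, and Aurkb at -0.94 ± 0.60 and Ncaph at -0.78 ± 0.42 for 4OHT+Fer1 were not called.

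The difference between the effect of 4OHT without Ferrostatin-1 and its effect with Ferrostatin-1, the interaction, had a median log2 value of -1.21 over the 56 genes. It was negative in 55 of them, the exception being Cenpa at 0.03 ± 0.49. None passed the adjusted threshold in edgeR's quasi-likelihood test, against 0.0233% of all genes called lower, 37 had an unadjusted p under 0.05, against 3.49% of all genes lower at that level, and DESeq2 called 9. The largest values were those of Kif20b at -1.86 ± 0.39 (adjusted p = 0.202), Ncapg at -1.78 ± 0.40 (adjusted p = 0.251) and Ttk at -1.75 ± 0.34 (adjusted p = 0.167). The median is close to that of 4OHT against ctrl, and the standard errors are larger, for Kif20b 0.39 against 0.28. Without 4OHT replicate 3 the median of the interaction was -0.78, with 52 of the 56 values negative. DESeq2 called 0.56% of all genes in either direction, and the reported fit 0.0311%.

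Fresh medium had the lowest levels. Against ctrl, 55 of the 56 genes fell (edgeR's quasi-likelihood test), with a median log2 fold change of -3.58, which is 0.0836 of the ctrl level, against 4.1% of all genes called lower. In 55 of the 56 genes, all but Pttg1, both medium libraries lay below all 3 ctrl libraries, against 17.4% of all genes. Bub1 had the largest change, -5.02 ± 0.70 (adjusted p = 6.91e-04), with 0.889 and 1.22 CPM in medium, and Aspm, Ccna2, Hmmr, Ckap2l, Ccnb2, Ttk, Ccnb1 and Mki67 followed with log2 fold changes between -4.53 and -4.20. Mki67 stood at 10.7 and 23.1 CPM in medium against 271, 292 and 348 in ctrl, and Top2a at 24.5 and 44.4 against 504, 585 and 453. By role, the summed level in medium was between 5.47% of the ctrl mean for the spindle assembly checkpoint and 33.8% for anaphase onset and cohesion, a group in which Pttg1 held most of what was left. Without the replicate number in the model 53 genes were called and by DESeq2 55, against 3.56% and 8.97% of all genes called in either direction. With medium reduced to 1 library, the spread is taken from the other groups, so only effect sizes are given. The median log2 fold change was -3.56 without number 1 and -3.68 without number 2, and 55 of the 56 genes remained lower in both.

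Some genes kept more of their RNA in medium. Smc4 stood at 308 and 342 CPM, a log2 fold change of -1.26 ± 0.36 (adjusted p = 0.0431) against ctrl. Tpx2, which activates Aurora A on the spindle, stood at 34.5 and 24.9 CPM in medium and 79.6, 89.4 and 62.5 in ctrl, which is -1.47 ± 0.33 (adjusted p = 0.0132) on the log2 scale. Incenp had -1.62 ± 0.17 (adjusted p = 1.14e-04). Pttg1 was the only one of the 56 that did not fall. Its medium value of 112 CPM in number 1 was the highest of all 14 libraries, that of number 2, 71.9 CPM, lay within the ctrl range, and the log2 fold change was 0.42 ± 0.25 (adjusted p = 0.336).

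**Figure D3:**
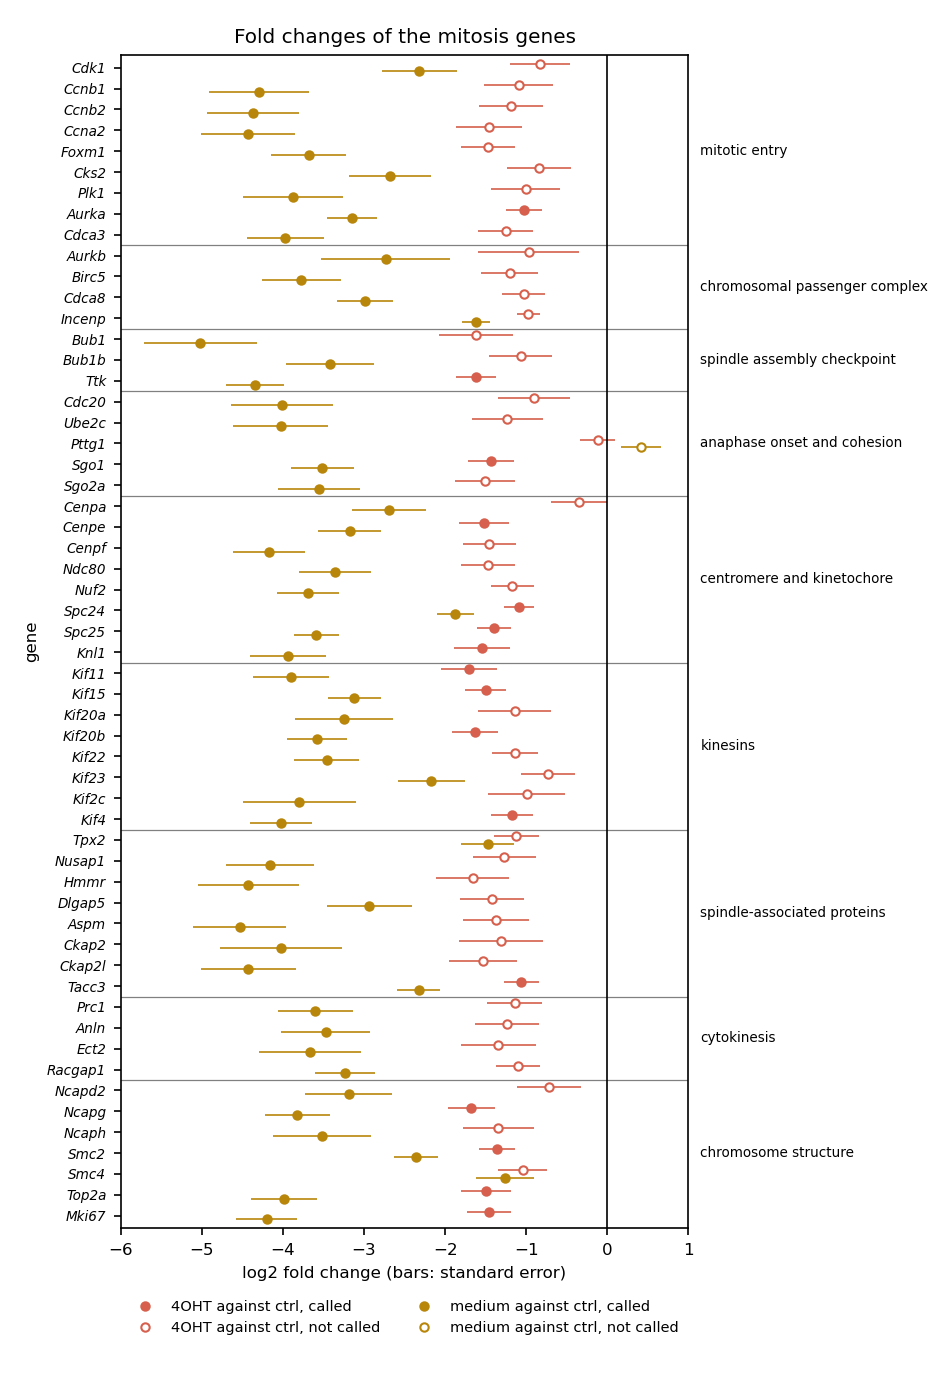
Log2 fold changes with standard errors of the 56 genes, by role, for 4OHT against ctrl (red) and medium against ctrl (ochre), with filled points for genes that were called. All red points lie below 0, between -1.71 and -0.12, and all ochre points except that of Pttg1 lie between -5.02 and -1.26.

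The 4OHT group lay between medium and the other supernatants. Compared with medium, 41 of the 56 genes were higher in 4OHT (edgeR's quasi-likelihood test), against 1.42% of all genes called higher, with a median log2 fold change of 2.28, and 55 had a positive value. In 49 of the 56 genes both medium libraries lay below all 4OHT libraries, against 14.7% of all genes. The largest differences were those of Bub1 at 3.40 ± 0.68 (adjusted p = 0.0151), Ccnb1 at 3.21 ± 0.60 (adjusted p = 0.0108), Ccnb2 at 3.18 ± 0.55 (adjusted p = 0.00744) and Aspm at 3.16 ± 0.54 (adjusted p = 0.00717), and the smallest that of Smc4 at 0.22 ± 0.34 (adjusted p = 0.865). Tpx2 at 0.35 ± 0.32 (adjusted p = 0.704) was also close to its medium level. In 41 of the 56 genes all 3 4OHT libraries lay below all 9 libraries of ctrl, Fer1 and 4OHT+Fer1, against 2.38% of all genes, and in 38 medium lay below 4OHT as well, against 1.31%. With 1 library of medium left, only effect sizes are given. The median log2 fold change was 2.015 after leaving out number 1 and 2.137 after leaving out number 2. In number 3, which medium lacks, the 4OHT library had the lowest levels. Without that library 51 of the 56 were called, against 3.64% of all genes called in either direction.

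Other genes of the cell cycle were followed in lists chosen by function, also with earlier results of these data known. Of 78 further mitosis genes, 11 fell in 4OHT against ctrl, with a median log2 fold change of -1.04, and 50 fell in medium, with a median of -2.32. Over all tested genes these shares were 0.763% and 4.1%. Lmnb1, lamin B1, with 108, 122 and 101 CPM in ctrl and 56.3, 53.7 and 23.7 in 4OHT, had the smallest adjusted p in 4OHT, -1.36 ± 0.21 (adjusted p = 0.0123). The centromere proteins Cenpw, Cenph and Cenpm, at -1.18, -1.46 and -1.51, and the mitotic kinase Pbk, at -1.47, followed. The most abundant of this list were H2az1, a histone H2A variant, at -0.44 ± 0.18 (adjusted p = 0.393) in 4OHT, and Smc1a, a cohesin subunit used throughout interphase, at -0.32 ± 0.13 (adjusted p = 0.397).

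Of 48 genes of DNA replication, which act in S phase before mitosis, 11 fell in 4OHT with a median of -0.91, and 28 fell in medium with a median of -1.42, against the same shares of all genes. Clspn, claspin of the replication fork, had the smallest adjusted p. It stood at 38.7, 49.4 and 38.5 CPM in ctrl, 34, 44.5 and 39 in Fer1, 39.9, 44.7 and 43.5 in 4OHT+Fer1, 13.3, 16.3 and 12.9 in 4OHT, and 5.59 and 7.45 in medium, and its log2 fold change in 4OHT was -1.57 ± 0.14 (adjusted p = 3.51e-04). Its 3 4OHT values were nearly level, while those of the summed mitosis genes were lowest in replicate 3. Rrm1 and Rrm2, the subunits of ribonucleotide reductase, had -1.15 ± 0.14 (adjusted p = 0.00434) and -1.83 ± 0.27 (adjusted p = 0.00923), and Tyms and Gins1 had -1.24 and -1.45. Lig1, DNA ligase 1, had -1.03 ± 0.22 (adjusted p = 0.0462), and Pcna, the sliding clamp and the most abundant of the list, had -0.52 ± 0.28 (adjusted p = 0.564). Summed over the list, 4OHT held 58.7%, 53.6% and 64.3% of ctrl in numbers 1, 2 and 3, against 53.1%, 59.8% and 21.1% for the mitosis genes. In number 3 the mitosis genes stood at a lower share of ctrl than the replication genes, and in numbers 1 and 2 at a similar one, a difference that was not tested. These shares also depend on ctrl replicate 3, a library that deviated from its group. Its mitosis sum was the highest in ctrl, but its replication sum was the lowest, with 1360, 1651 and 1077 CPM in ctrl. In 4OHT the replication sums were 798, 884 and 692 CPM, so replicate 3 was lowest there too. Between 4OHT and medium, 4 of the 48 replication genes were higher in 4OHT, against 1.42% of all genes, with a median of 0.55.

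Of 28 tested regulators of G1 and inhibitors of the cell cycle, Rbl1, a pocket protein related to RB, was the only gene called in 4OHT, at -1.001 ± 0.20 (adjusted p = 0.0326), and the median was -0.32, against 0.763% of all genes called lower. In medium 6 fell, against 4.1% of all genes, among them E2f7 at -3.54 ± 0.49 (adjusted p = 7.14e-04) and Cdkn2c at -2.15 ± 0.40 (adjusted p = 0.00401), with a median of -0.42. None of the 10 macrophage markers was called in 4OHT or in medium against ctrl, where 1.11% and 7.79% of all genes were called in either direction. At an unadjusted p under 0.05 (edgeR's quasi-likelihood test), 4 of the 10 were higher in 4OHT and 5 in medium, and 0 were lower. Of all 12851 genes, 1394 and 3082 had such a p in either direction. In medium Adgre1 (F4/80) at 0.73 ± 0.17 (adjusted p = 0.0146), Mertk, a receptor for apoptotic cells, at 0.79 ± 0.21 (adjusted p = 0.0296) and Fcgr1, an Fc receptor, at 0.80 ± 0.22 (adjusted p = 0.0374) were past the adjusted p and missed only the size of the change. Fcgr1 was called lower in 4OHT than in medium, -1.11 ± 0.22 (adjusted p = 0.0145), against 1.64% of all genes. Their summed level lay between 32000 and 47100 CPM in 4OHT and between 22700 and 30800 in ctrl, led by Lyz2, lysozyme, at 0.50 ± 0.16 (adjusted p = 0.219). Csf1r, the receptor of M-CSF, stood at 2244, 2263 and 1671 CPM in ctrl, 2393, 2754 and 4449 in Fer1, 1409, 3806 and 4783 in 4OHT+Fer1, 4544, 3634 and 4708 in 4OHT, and 4670 and 3701 in medium, so that it was high in all 4OHT and medium libraries but also in 2 libraries of 4OHT+Fer1 and in 1 of Fer1, and its log2 fold change in 4OHT was 1.03 ± 0.34 (adjusted p = 0.220). The fibroblast list had a range of 18.4 to 56.7 CPM in 4OHT, 21 to 58.1 in ctrl and 35.7 to 102 in medium. The granulocyte list, in which Ly6g and Elane were at 0 in all libraries, lay between 35.5 and 54.7 CPM in medium and between 3.03 and 18.5 in ctrl. In medium 2 of the 6 fibroblast genes and 2 of the 4 granulocyte genes that passed the filter were called higher than in ctrl, against 3.69% of all genes. The part of these markers in the results was not tested.

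**Figure D4:**
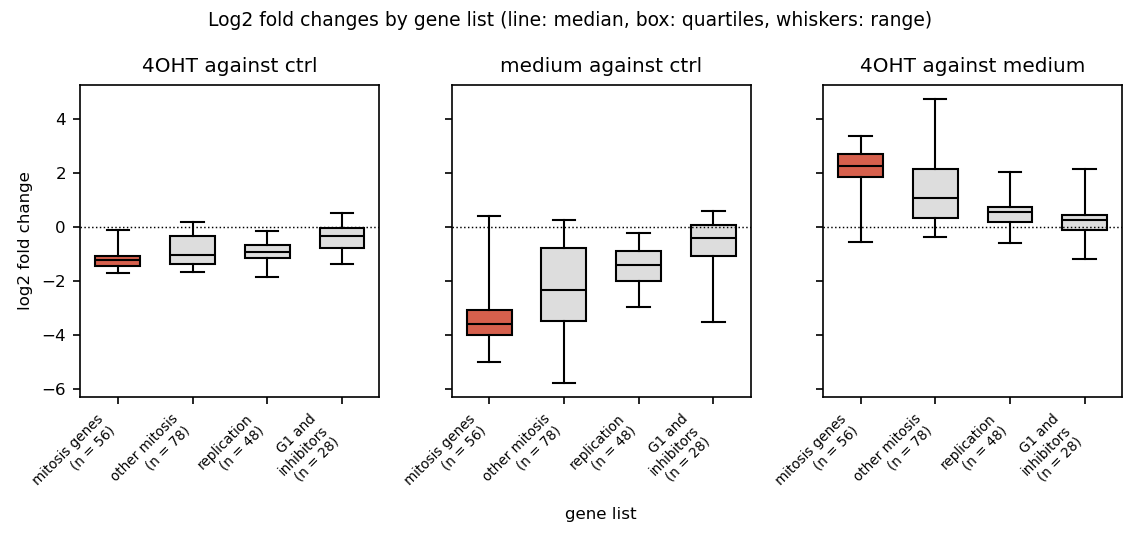
Log2 fold changes of the mitosis genes and of 3 other gene lists for 4OHT against ctrl, medium against ctrl and 4OHT against medium (line: median, box: quartiles, whiskers: lowest and highest gene). The medians of the mitosis genes are -1.23, -3.58 and 2.28, those of the replication genes -0.91, -1.42 and 0.55, and those of G1 regulators and inhibitors -0.32, -0.42 and 0.26.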

How the data were processed

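RNA of pBMDMs was sequenced from the 3′ end with QuantSeq in 14 samples. The authors aligned reads with STAR 2.7.10a, quantified genes with Salmon 1.5.2 and deposited the estimated counts, which are not normalized. The methods name the human genome GRCh38 for the alignment, the submitters' processing notes name GRCh38 and GRCm38, and the identifiers are those of mouse genes. A deposited table of the authors' DESeq2 comparisons, with log2 fold changes and p-values, and 14 columns of per-sample values in it were not used.

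Expected counts were rounded, since the test needs whole numbers (30109 values were not whole). The plan had assumed counts. Genes were kept by filterByExpr of edgeR 4.0.16 (R 4.3.3) with a minimum count of 10, scaled by TMM, and compared in the quasi-likelihood test, with p-values adjusted after Benjamini and Hochberg over all 12851 genes, in 1 model of the 14 samples with group and replicate number. A gene counted as called where its log2 fold change was beyond 1 in size and its adjusted p below 0.05. Standard errors are log2 fold changes divided by the root of F. Within replicate numbers, log2 CPM had a prior count of 2. The scripts were tested on simulated data.

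The replicate number was in the model because the study's methods include the mouse, and that a number is a mouse was assumed. The p-values measure the spread between these samples. Ddx3y, a Y-linked gene, stood between 92.8 and 142 CPM in all number 1 libraries and at most at 0.117 in the others. Samples of the same number in different groups correlated in their deviations from group means with a median of 0.35 (range -0.195 to 0.891, above 0.1 in 19 of 26 pairs), those of different numbers with -0.12 (11 of 52 pairs). Deviations cancel out within a group, so the value for different numbers depends on that for the same number and is not separate evidence. No 2 replicates agreed within sampling noise.

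The members and lists were chosen with earlier results of these data known. The genes named are, by role, the 3 with the highest mean CPM, every member called in 4OHT against ctrl, 4OHT against 4OHT+Fer1 or the interaction, and the largest and smallest change in each comparison. Members beyond this rule, the markers and the genes named from other lists beyond the 5 with the smallest p and 2 with the highest mean were chosen after their values were seen. In GENCODE M21, 26 of the 56 genes overlap no other gene, 13 overlap a gene on the same strand and 20 a gene on the opposite strand, and how the authors' counting used strand is not given in the sources used here. Sequences are from RefSeq. Alternatives were DESeq2 1.42.0, RLE scaling factors, no filter, no fold threshold, no replicate block, only the groups compared, and left-out replicates.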

Additional observations from a re-analysis of the deposited data

Results flagged for a closer look

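For 2 of the 56 genes the differences within replicate numbers had opposite signs without and with Ferrostatin-1. Ttk stood at -1.43, -1.25 and -2.34 on the log2 scale in 4OHT minus ctrl (numbers 1, 2 and 3), and at 0.34, 0.06 and 0.03 in 4OHT+Fer1 minus Fer1. Kif4 stood at -1.23, -0.68 and -1.80 and at 0.18, 0.14 and 0.23. The positive values are small, 4OHT+Fer1 against Fer1 was not tested, and equal signs in 3 replicates among 56 genes can arise by chance, so a rise with 4OHT+Fer1 is not shown. The interaction was -1.75 for Ttk and -1.37 for Kif4 and was past the threshold for neither (edgeR, quasi-likelihood), with adjusted p-values of 0.167 and 0.314.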

How the results depend on the processing

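The direction of the 4OHT difference held for at least 54 of the 56 genes against ctrl and at least 51 against 4OHT+Fer1 under every alternative, while the number of called genes depended on the setting. Against ctrl, 38 genes were called by DESeq2, 39 without the filter on low counts, 1 with no replicate block and 0 with only the groups compared, against 16, and 0 to 12 with replicates left out. Of all genes tested, the first 4 settings called 2.15%, 1.16%, 0.0467% and 0% in either direction, against 1.11%. With replicates left out the share of all genes was 0% to 1.48%. Against 4OHT+Fer1, 32 were called by DESeq2, 32 without the filter, 5 with no replicate block and 6 with only the groups compared, against 18, and 0 to 16 with replicates left out. The shares of all genes for these settings were 1.92%, 1.03%, 0.14% and 0.358%, against 1.03%, and 0% to 2.2% with replicates left out. For medium against ctrl the range was 20 to 55 and for 4OHT against medium 0 to 51. For the interaction DESeq2 called 9 and the fit without the filter 7, and without 4OHT replicate 3, or without ctrl replicate 3 and 4OHT+Fer1 replicate 1, each chosen after seeing the data, 1 was called. In the same order these settings called 0.56%, 0.143%, 0.241% and 0.109% of all genes in either direction. 4OHT+Fer1 and Fer1 against ctrl had 0 calls among the 56 genes under every alternative. Of all genes at most 0.109% and 0.0233% were called in either direction.

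No replicate block left 53 calls in medium against ctrl, 32 in 4OHT against medium and 0 in the interaction, 4OHT+Fer1 and Fer1 comparisons. Of all genes, 3.56% and 0.755% were called in either direction in the first 2 of these.

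Of 170 fold changes of named genes that were followed through the alternatives, 10 changed sign, none of them called in the reported fit. Other members were followed only by their counts of lower genes. With replicates left out, log2 fold changes in 4OHT against ctrl ranged from -0.308 to 0.0683 for Pttg1, from -1.88 to 0.182 for Aurkb and from -0.648 to 0.152 for Cenpa, where the positive values were those without replicate 2 for Pttg1, without replicate 3 for Aurkb, and without replicate 3 (0.11) or 4OHT replicate 3 for Cenpa. In 4OHT against 4OHT+Fer1 they ranged from -0.865 to 0.617 for Aurkb (0.0262 without replicate 1 and 0.5 without replicate 3), from -0.494 to 0.598 for Cenpa (0.502 without 4OHT replicate 3) and from -0.857 to 0.189 for Cdk1 (0.12 without 4OHT replicate 3), and Aurkb and Cenpa were at 0.053 and 0.0222 with no replicate block. Foxm1 in 4OHT+Fer1 against ctrl, 0.00238 in the reported fit, was at -0.00209 with RLE factors, -0.000883 by DESeq2, -0.01 without the filter, -0.0144 with no replicate block and -0.0196 with only the groups compared, and ranged from -0.155 to 0.207 with replicates left out (-0.0134 without 4OHT replicate 3). In Fer1 against ctrl the range was -0.0371 to 0.229 for Ube2c (0.0166 and 0.0013 without replicates 1 and 3) and -1.06 to 0.238 for Aurkb (0.121 without replicate 3). For Cenpa in the interaction it was -0.387 to 0.651 (-0.287 without replicate 1). The cause of these changes was not tested. Values cover the spread between 3 replicates, or 2 for medium, and copies made by PCR are counted like separate molecules.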
